A study of Mus musculus with 1 sample.

Results

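Imprinted genes, which are transcribed mainly from the copy inherited from the mother or mainly from the copy inherited from the father, were followed across the cell types of the prepubertal mouse testis. The rule named 35 genes by symbol and asked for any UMI (unique molecular identifier), but used no level. The list was chosen with earlier results of these data known. A UMI is the count of 1 captured transcript molecule. Of the 35 genes, 34 were listed in the deposited gene table, and all 34 had at least 1 UMI, out of 18722 genes with a UMI. Rian was listed neither by symbol nor by Ensembl identifier and has no value here. Of the 34 genes, 9 are known for expression from the maternal copy and 21 for expression from the paternal copy. The other 4, Gnas, Grb10, Inpp5f and Ddc, were kept apart as genes whose active copy depends on the transcript or the tissue. Dependence on tissue was not assessed for the rest. Reads were not assigned to a parental copy, so each level is the sum over both copies. The labels "maternally expressed" and "paternally expressed" are known properties of the genes in at least some tissues rather than measurements. They do not say which copy was active in the germ or somatic cells studied here.

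In somatic cells the active copy is mainly set by DNA methylation of imprinting control regions, which was laid down in the germ line of one parent and is maintained after fertilization. In the male germ line these marks are erased in primordial germ cells, and the paternal pattern is laid down in prospermatogonia before spermatogonia form. Imprinted genes lie in clusters, many of which contain a long non-coding RNA such as H19, Meg3, Airn or Kcnq1ot1. Many act on growth: Igf2 encodes a growth factor, whereas Igf2r clears that factor and Cdkn1c, Phlda2 and Grb10 restrain growth.

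The cells came from the testes of Zscan2+/+ (wild-type) C57BL/6 mice at postnatal day 8. Cells of 3 mice were pooled into 1 library after enrichment for THY1, a surface protein of undifferentiated spermatogonia, and unselected testis cells were added, so the mixture sets the shares of cell types. Cells of Zscan2−/− mice were not analysed here. The wild-type library held 970 cell barcodes with 2655 to 44915 UMIs each (median 9115), and 920 were kept. There was no replicate library, no test was possible, and every interval given is an exact 95% interval for counting error only.

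The kept cells were clustered without the imprinted genes among the variable genes and named from marker lists. This gave 111 cells like spermatogonial stem cells (SSC-like), 79 progenitor-like and 134 differentiating-like spermatogonia, together 324 germ cells. The somatic cells compared with them were 255 Sertoli-like, 200 stromal-like and 93 peritubular myoid-like cells, and 35 macrophage-like and 13 T cell-like cells were set aside. Levels are given in CPM, the UMIs of a gene added up over the cells of a class, scaled to a total of 1000000. They come from one end of each transcript and were not divided by length, so levels are compared between classes and not between genes. The 6 germ cell markers summed to 1350 CPM in germ cells and 30.4 CPM in the 548 somatic cells. The SSC marker list stood at 198, 76.3 and 8.37 CPM in SSC-, progenitor- and differentiating-like cells, and the progenitor list at 438, 722 and 330 CPM. The list for differentiating spermatogonia stood at 831, 1105 and 2412 CPM. Its rise from SSC- to progenitor-like cells came from Uchl1 (541 and 840 CPM). Kit, Rhox13 and Dmrtb1 were lower in progenitor-like cells, and Stra8 and Sycp3 were nearly level. None of the markers of their own class was among the 10 leading genes of the SSC-like or of the progenitor-like cluster, so the names of these clusters rest on small differences. The progenitor-like class also held 1 barcode rich in hemoglobin UMIs. Stromal-like cells carried the stromal list at 7169 CPM and, beside it, the Leydig cell list at 403 CPM and the endothelial gene Cdh5 at 135 CPM. The other endothelial markers Pecam1, Kdr and Emcn were low there, at 6.90, 9.78 and 10.9 CPM. Germ cells had more UMIs per cell (median 18216) than Sertoli-like (8343), stromal-like (8254) and myoid-like cells (7416).

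Summed over the 34 genes, imprinted transcripts were far more abundant in stromal-like cells than in any other class compared. They made up 15069 CPM there (14887 to 15252), against 3702 CPM (3564 to 3845) in myoid-like, 916 CPM (877 to 956) in Sertoli-like and 685 CPM (664 to 707) in germ cells. The stromal-like level was 22.0-fold that of germ cells. Within the germ cells the sum moved little, at 722, 667 and 647 CPM in SSC-, progenitor- and differentiating-like cells.

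Maternally and paternally expressed genes gave different orders of the cell classes. The 9 maternally expressed genes summed to 234, 262 and 178 CPM in SSC-, progenitor- and differentiating-like cells, and to 58.8 CPM in Sertoli-like, 2174 CPM in myoid-like and 7301 CPM in stromal-like cells. Sertoli-like cells were thus lowest, and germ cells held 3.82-fold their maternal sum (3.19 to 4.59). The 21 paternally expressed genes summed to 349, 288 and 382 CPM in the 3 germ cell classes, and to 555 CPM in Sertoli-like, 1097 CPM in myoid-like and 6849 CPM in stromal-like cells. For them germ cells were lowest, and the log2 ratio of germ over Sertoli-like cells was -0.70 (-0.80 to -0.59). The 4 genes whose active copy varies stood at 118 CPM in germ cells, 302 CPM in Sertoli-like, 431 CPM in myoid-like and 919 CPM in stromal-like cells.

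Single genes carried much of these sums. Meg3 gave 89.4% of the maternal UMIs of stromal-like cells, H19 gave 58.2% of those of myoid-like cells, and Dlk1 gave 74.7% of the paternal UMIs of stromal-like cells. In germ cells no gene dominated in this way: Cdkn1c gave 31.4% of the maternal UMIs and Dlk1 29.1% of the paternal UMIs. The log2 ratio of germ over somatic cells was -3.75 (-3.84 to -3.67) for the maternal sum and -3.10 (-3.17 to -3.03) for the paternal sum. Without Meg3 it was -1.55 (-1.66 to -1.44), and without Dlk1 it was -2.10 (-2.19 to -2.01), so the germ cell sums remained lower without either gene. Without Meg3, the maternal sum was highest in myoid-like (1317 CPM, 1235 to 1403) rather than stromal-like cells (772 CPM, 731 to 814). Mitochondrial UMIs made up 6.81% of the total in germ and 4.61% in somatic cells. With a mitochondrial limit of 5% the log2 ratios of the sums were -4.65 and -4.06. That limit kept 67 germ cells instead of 324 and 54 Sertoli-like cells instead of 255, but 98 myoid-like cells. The mixture of somatic cells therefore changed as well, with a smaller part of Sertoli-like cells.

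**Figure D1:**
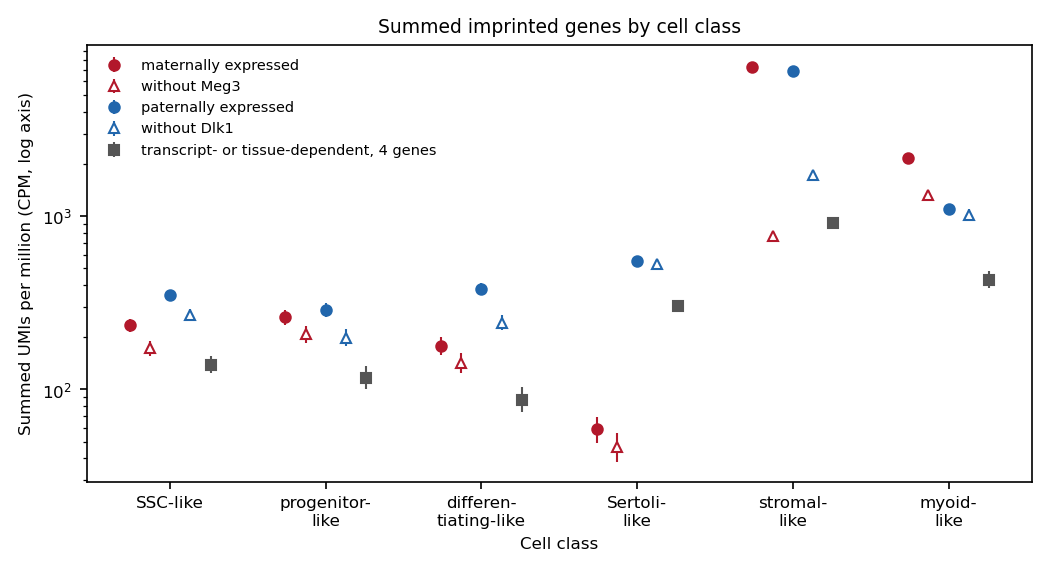
Summed level of maternally expressed (red), paternally expressed (blue) and transcript- or tissue-dependent (grey) imprinted genes in 6 cell classes, in CPM on a log axis, with exact 95% Poisson intervals. Open triangles leave out Meg3 or Dlk1; the maternal sum is lowest in Sertoli-like cells (58.8 CPM), the paternal sum in the germ cell classes (288 to 382 CPM), and both are highest in stromal-like cells, except that without Meg3 the maternal sum is highest in myoid-like cells.

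Gene by gene, most imprinted genes were lower in germ cells than in the somatic cells. Of the 30 genes with at least 20 UMIs in these cells, 20 were at least 2-fold higher in somatic cells and 6 were at least 2-fold higher in germ cells. Over all 12686 genes with as many UMIs, 26.9% were at least 2-fold higher in somatic and 26.2% in germ cells. The median log2 ratio of the imprinted genes was -2.41, and that of all genes was 0.08. By parental copy, 5 of 8 maternally expressed and 13 of 18 paternally expressed genes were at least 2-fold higher in somatic cells. The 6 genes higher in germ cells were Ascl2, Phlda2, Inpp5f, Ddc, Zrsr1 and Slc38a4, and the 4 within 2-fold were Cdkn1c, Snrpn, Zdbf2 and Mkrn3. Igf2r, at a log2 ratio of -1.01 (-1.46 to -0.58), lay at the edge of the 2-fold limit.

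The somatic classes did not contribute equally to this. Against stromal-like cells, 18 of 29 genes were at least 2-fold lower and 7 at least 2-fold higher in germ cells (21.0% and 35.6% of all genes). Against myoid-like cells, 11 of 24 were lower and 4 higher (17.6% and 36.5% of all genes). Against Sertoli-like cells, 10 of 25 were lower and 11 higher (24.2% and 27.5% of all genes), and the median log2 ratio was 0.20 beside 0.11 for all genes. Of the 6 maternally expressed genes in this comparison, 5 were at least 2-fold higher in germ than in Sertoli-like cells, and Igf2r was lower. Between somatic classes, 16 of 25 genes were at least 2-fold higher in stromal- than in Sertoli-like cells and 4 lower (13.6% and 25.5% of all genes). Against myoid-like cells, 13 of 23 were higher in stromal-like cells and 2 were lower (10.6% and 6.27% of all genes).

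**Figure D2:**
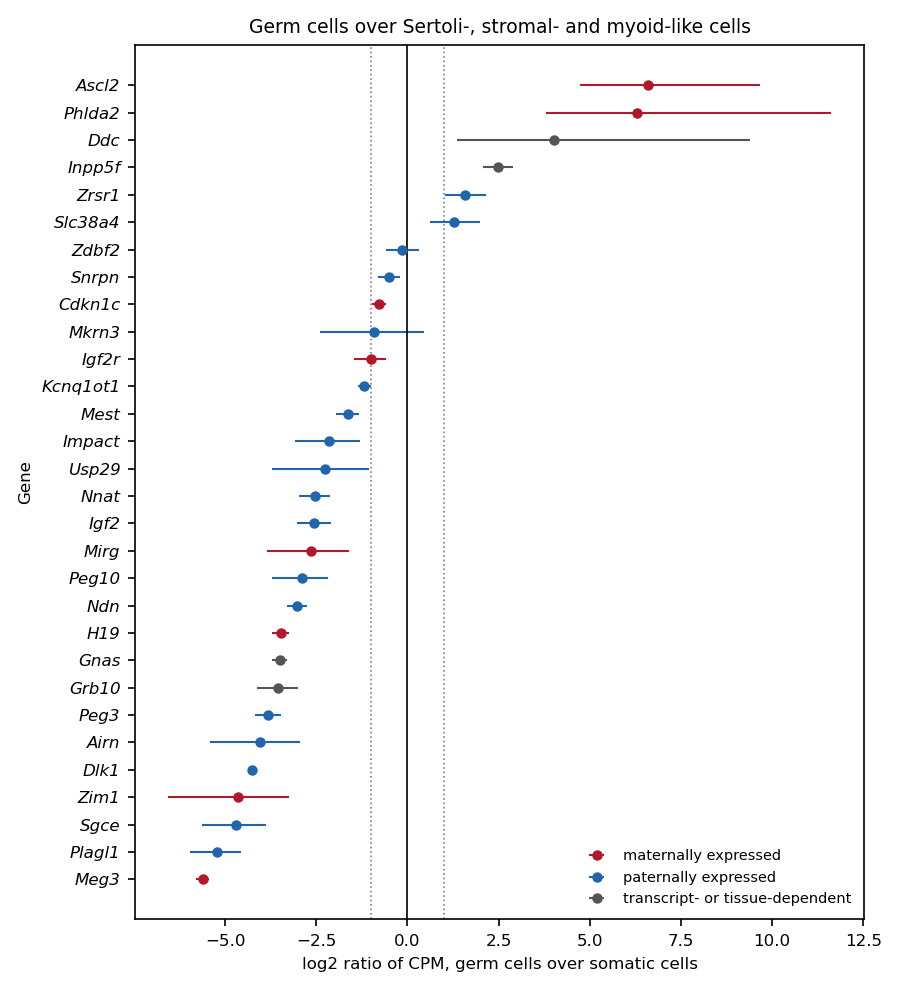
log2 ratio of CPM in germ cells over the summed Sertoli-, stromal- and myoid-like cells for the 30 genes with at least 20 UMIs, with exact conditional 95% intervals. Dotted lines mark 2-fold; 6 genes lie beyond it on the germ cell side, led by Ascl2 and Phlda2, and 20 on the somatic side, with Meg3 lowest at -5.61.

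Genes of the Dlk1-Dio3 cluster gave most of the imprinted UMIs of stromal-like cells. Meg3 (chr12:109541001-109571726, plus strand, GRCm38), a maternally expressed long non-coding RNA, stood at 6529 CPM in stromal-like and 857 CPM in myoid-like cells. In SSC-, progenitor-, differentiating- and Sertoli-like cells it stood at 61.4, 53.4, 35.3 and 12.2 CPM. Dlk1 (chr12:109452823-109463336, plus strand), the paternally expressed neighbour, encodes a membrane protein related to Notch ligands. It stood at 5117 CPM in stromal-like cells, and at 79.9, 88.8, 138, 27.9 and 75.5 CPM in SSC-, progenitor-, differentiating-, Sertoli- and myoid-like cells. The summed levels of Dlk1 and Meg3 were therefore both high in stromal-like cells and differed in myoid-like cells, where Meg3 was high and Dlk1 was below its level in differentiating-like cells. Stromal-like cells held 67.7-fold the Dlk1 level of myoid-like cells (52.0 to 90.0) and 7.62-fold their Meg3 level (7.03 to 8.27). With every cell thinned to 5000 UMIs, both transcripts were found in 158 of 182 stromal-like cells and in 20 of 89 myoid-like cells. These 20 were all the myoid-like cells with Dlk1. Since Meg3 was found in 84 of the 89, this overlap carries little information. The part of RNA released by stromal-like cells in the Dlk1 UMIs of myoid-like cells was not tested. Mirg, a maternally expressed RNA at the far end of the cluster that hosts microRNAs, followed Meg3 at low counts, with 46 of its 57 UMIs in stromal-like cells.

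Levels of these genes varied widely among stromal-like cells. Dlk1 ranged from 0 in 21 of the 200 cells to 221 UMIs per 10000 in the highest, with a median of 41.4 (quartiles 14.5 and 82.0). Meg3 had a median of 60.2 UMIs per 10000 (quartiles 24.7 and 99.1) and was 0 in 6 cells. At a clustering resolution of 1.2 the stromal-like cells fell mainly into a cluster of 118 and one of 69 cells. In the cluster of 118, Dlk1 stood at 7737 CPM, Meg3 at 9009 CPM and the Leydig cell list at 7.06 CPM. In that of 69, Dlk1 stood at 1848 CPM, Meg3 at 3549 CPM and the Leydig cell list at 1047 CPM, so the cells with Leydig cell transcripts held less of both genes. The stromal marker list differed alike, at 10452 and 3094 CPM, and its part in the result was not tested. Cdkn1c followed the same order (475 and 112 CPM), whereas Gnas (751 and 778 CPM) and Grb10 (115 and 101 CPM) were nearly level between the clusters and Kcnq1ot1 was higher in the second (110 and 202 CPM).

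**Figure D3:**
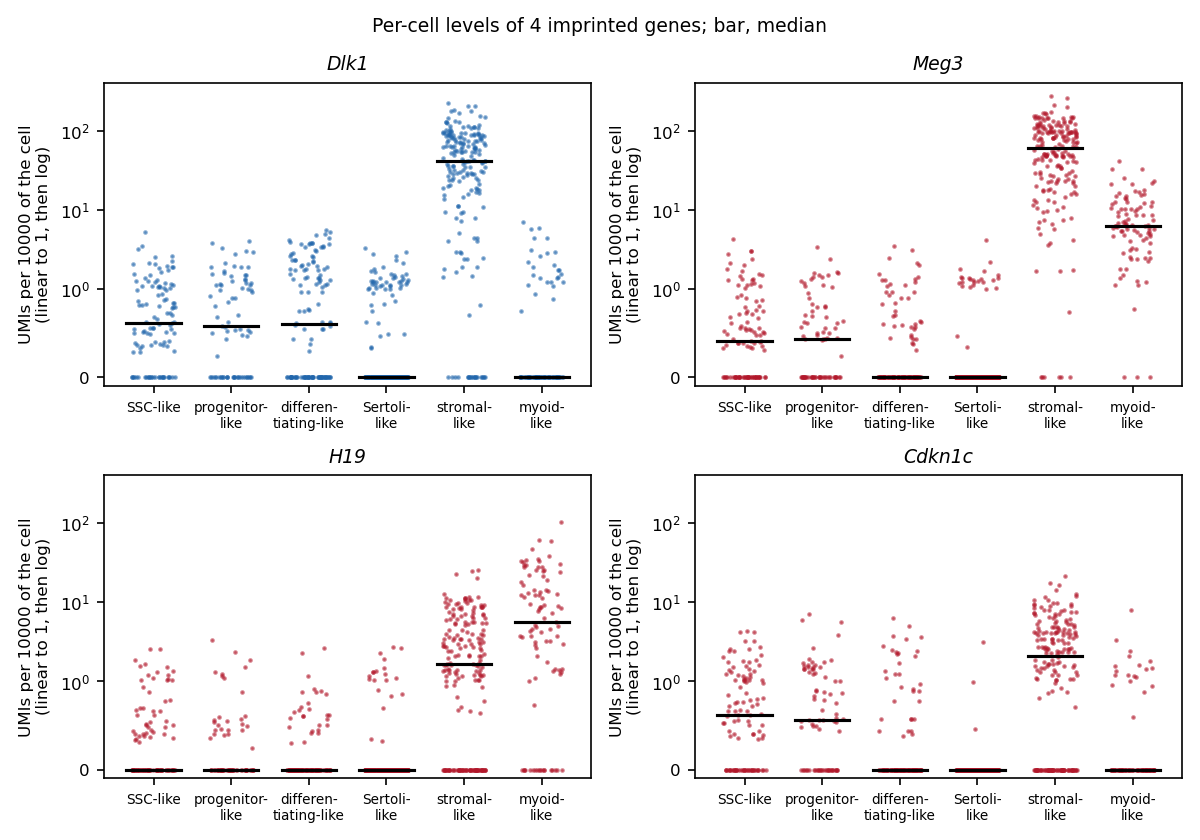
UMIs per 10000 of each cell for Dlk1, Meg3, H19 and Cdkn1c in 6 cell classes (1 point a cell, bar at the median, axis linear up to 1 and logarithmic above). Dlk1 and Meg3 have medians of 41.4 and 60.2 in stromal-like cells, H19 has its highest median (5.67) in myoid-like cells, and Cdkn1c was 0 in 252 of 255 Sertoli-like cells.

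The H19-Igf2 pair had its highest levels in myoid- and stromal-like cells. H19 (chr7:142575529-142578143, minus strand), a maternally expressed long non-coding RNA, stood at 1266 CPM in myoid-like and 353 CPM in stromal-like cells, against 36.9, 29.1, 18.5 and 10.9 CPM in SSC-, progenitor-, differentiating- and Sertoli-like cells. It was 1 of only 2 genes, with Nnat, that were at least 2-fold higher in myoid- than in stromal-like cells. Its level differed greatly among myoid-like cells, from 0 in 18 of 93 cells to 102 UMIs per 10000 in 1 cell. Igf2 (chr7:142650766-142666816, minus strand) stood at 98.9 CPM in myoid-like and 93.7 CPM in stromal-like cells, levels whose ratio of 0.948 had an interval of 0.714 to 1.27. In germ cells Igf2 stood at 12.7, 5.55 and 4.78 CPM from SSC- to differentiating-like cells, and only 2 of its 284 UMIs were in Sertoli-like cells.

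A further group of paternally expressed genes was high in stromal-like cells and next highest in myoid-like cells. Peg3, a zinc finger gene, stood at 438 CPM in stromal-like and 207 CPM in myoid-like cells, and at 12.2 CPM in Sertoli-like cells, and had 78 of 1018 UMIs in germ cells. Ndn, which encodes the growth-restraining protein necdin, stood at 376, 133, 54.0 and 22.5 CPM in stromal-, myoid-, Sertoli-like and germ cells, and Plagl1, a zinc finger transcription factor gene, at 304, 89.3, 7.84 and 3.42 CPM. These 3 genes lie in different imprinted clusters, and each was higher in stromal- than in myoid-like cells and lower in the other classes. Mest, which encodes a protein of the hydrolase family, joined them with 160 CPM in stromal-like and 39.8 CPM in myoid-like cells, but germ cells held 21.2 CPM against only 2.18 CPM in Sertoli-like cells. Zim1, the maternally expressed neighbour of Peg3, had 84 of its 90 UMIs in stromal-like cells. Grb10, an adaptor that dampens insulin and growth factor signalling, was level between stromal-like (112 CPM) and myoid-like cells (133 CPM) and stood at 3.48 CPM in Sertoli-like and 5.40 CPM in germ cells. Gnas, which encodes the stimulatory G protein alpha subunit, was high in every somatic class (796, 286 and 285 CPM in stromal-, myoid- and Sertoli-like cells) and stood at 41.6 CPM in germ cells.

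Sertoli-like cells were low in most of these genes but high in a few others. Kcnq1ot1 (chr7:143203458-143296549, minus strand), a paternally expressed long non-coding RNA, stood at 180 CPM in them, 143 CPM in stromal-like, 94.8 CPM in myoid-like and 67.7 CPM in germ cells. Peg10, a gene derived from a retrotransposon, had 111 of its 133 UMIs in Sertoli-like cells (48.4 CPM) and stood at 1.15 CPM in stromal-like and 2.75 CPM in myoid-like cells. Its neighbour Sgce, read in the opposite direction and encoding a sarcoglycan, did not share this pattern: it stood at 40.1, 84.5 and 67.3 CPM in Sertoli-, stromal- and myoid-like cells. In germ cells Peg10 stood at 3.24 CPM and Sgce at 2.34 CPM. Nnat, which encodes a small membrane proteolipid, stood at 191 CPM in myoid-like and 59.7 CPM in Sertoli-like cells, but at 13.2 CPM in stromal-like and 10.8 CPM in germ cells. Snrpn, which encodes a splicing protein, ranged from 24.2 CPM in stromal-like to 57.5 CPM in Sertoli-like cells, with 29.2 CPM in germ cells. Igf2r stood at 33.1 CPM in Sertoli-like and 12.8 CPM in germ cells.

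**Figure D4:**
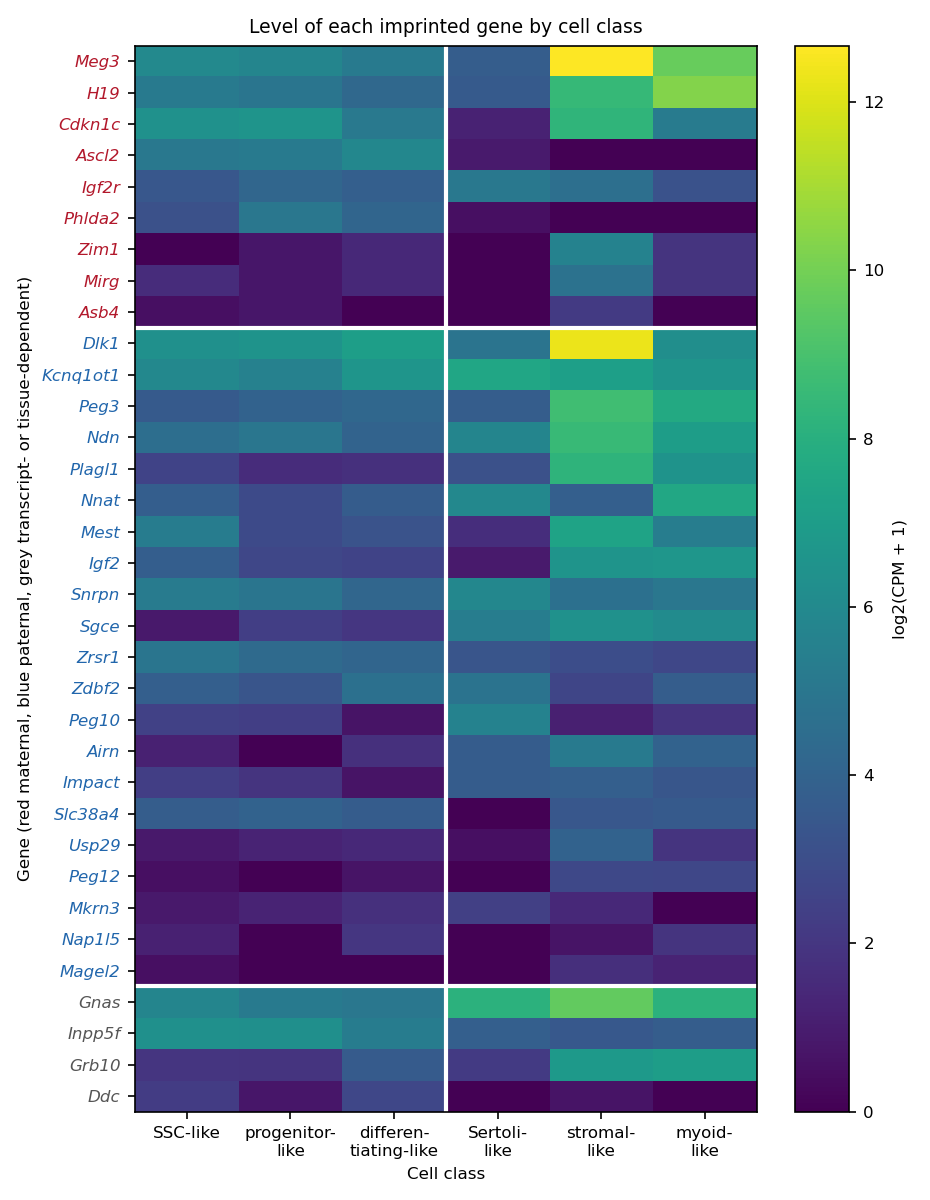
Level of the 34 imprinted genes with a UMI, as log2(CPM + 1), in 3 germ cell classes (left of the white line) and 3 somatic classes. Rows are maternally expressed (red names), paternally expressed (blue) and transcript- or tissue-dependent genes (grey); Meg3 and Dlk1 reach 6529 and 5117 CPM in stromal-like cells, and Ascl2 and Phlda2 are at 0 in stromal- and myoid-like cells.

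Among the germ cells and the 3 somatic classes compared, nearly all UMIs of Ascl2 and Phlda2 were in germ cells. Ascl2 (chr7:142966829-142969264, minus strand), which encodes a basic helix-loop-helix transcription factor, had 228 of its 230 UMIs in these classes in germ cells (99.1%, interval 96.9 to 99.9%). The macrophage-like cells, not part of that total, held 5 further UMIs, or 9.69 CPM (3.15 to 22.6). It stood at 33.2, 35.4 and 57.4 CPM in SSC-, progenitor- and differentiating-like cells, at 0.871 CPM in Sertoli-like cells and at 0 in stromal- and myoid-like cells. With a count of 0 set at the floor of 3 UMIs, germ cells held 23.8-fold the level of stromal-like and 9.96-fold that of myoid-like cells. These folds are not limits of an interval, since the exact upper limits at 0 UMIs were 2.12 and 5.07 CPM, above the floor levels of 1.73 and 4.12 CPM. Phlda2 (chr7:143501545-143503150, minus strand), a small gene with a pleckstrin homology domain, had 92 of 93 UMIs in germ cells and stood at 7.78, 31.2 and 16.7 CPM in the 3 germ cell classes. Both are listed as maternally expressed and lie in the Kcnq1ot1 cluster of chromosome 7.

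Cdkn1c (chr7:143458339-143461050, minus strand), the third maternally expressed gene of that cluster measured here, encodes the cyclin-dependent kinase inhibitor p57. It was shared between germ cells (70.6 CPM) and stromal-like cells (317 CPM), stood at 37.1 CPM in myoid-like cells, and had 3 UMIs in all Sertoli-like cells (1.31 CPM). Germ cells thus held 54.0-fold the level of Sertoli-like cells, with an interval of 18.3 to 263. Inpp5f, which encodes an inositol phosphatase, stood at 67.5 CPM in germ cells and at 13.5, 10.4 and 12.4 CPM in Sertoli-, stromal- and myoid-like cells, a 5.54-fold difference from all somatic cells (4.20 to 7.44). Only 1 transcript form of Inpp5f is known to be imprinted, and the counts do not separate the forms. Slc38a4, an amino acid transporter gene, stood at 12.8 CPM in germ cells, 9.78 CPM (5.69 to 15.7) in stromal-like and 11.0 CPM (4.74 to 21.6) in myoid-like cells, and was at 0 in Sertoli-like cells. Its higher level in germ cells thus came from Sertoli-like cells, against which germ cells held 9.78-fold with the 0 set at the floor of 3 UMIs. Ddc, the gene of the decarboxylase that makes dopamine and serotonin, was rare, with 19 of 20 UMIs in germ cells.

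Zrsr1, a paternally expressed retrogene that encodes a splicing factor, stood at 23.2 CPM in germ cells and at 9.15, 6.90 and 5.49 CPM in Sertoli-, stromal- and myoid-like cells. It derives from the gene Zrsr2, whose transcripts are alike in sequence, and reads may not separate the pair. Zrsr2 stood at 415 CPM in germ cells and at 104, 56.9 and 65.9 CPM in the same somatic classes. The 2 genes thus had the same order of germ over somatic cells, 2.99-fold (2.06 to 4.43) for Zrsr1 and 5.14-fold (4.61 to 5.74) for Zrsr2, and the part of Zrsr2 in the counts of Zrsr1 was not tested. Commd1, whose gene surrounds Zrsr1 on the opposite strand, stood at 111 CPM in germ and 137 CPM in somatic cells.

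Promoters of genes on both sides of this divide are shown with their CpG dinucleotides, the sites at which DNA is methylated. The windows were placed by transcription start and were not chosen as imprinting control regions. Each window runs from 250 bases before to 50 bases after a RefSeq transcription start in GRCm38.p6, is written 5′ to 3′ on the gene's strand, and has every CpG in capitals. Dlk1 (chr12:109452573-109452872, plus strand, 9 CpG) and Peg3 (chr7:6730370-6730669, minus strand, 13 CpG) stand for the genes high in stromal-like cells. Ascl2 (chr7:142969215-142969514, minus strand, 23 CpG), Phlda2 (chr7:143502475-143502774, minus strand, 26 CpG) and Zrsr1 (chr11:22971755-22972054, plus strand, 10 CpG) stand for those higher in germ cells.
Dlk1: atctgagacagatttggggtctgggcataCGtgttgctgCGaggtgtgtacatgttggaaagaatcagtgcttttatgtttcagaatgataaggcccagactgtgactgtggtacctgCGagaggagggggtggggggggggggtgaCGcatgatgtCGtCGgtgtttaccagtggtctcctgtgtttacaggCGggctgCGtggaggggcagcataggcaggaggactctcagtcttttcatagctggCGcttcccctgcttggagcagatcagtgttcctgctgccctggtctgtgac
Peg3: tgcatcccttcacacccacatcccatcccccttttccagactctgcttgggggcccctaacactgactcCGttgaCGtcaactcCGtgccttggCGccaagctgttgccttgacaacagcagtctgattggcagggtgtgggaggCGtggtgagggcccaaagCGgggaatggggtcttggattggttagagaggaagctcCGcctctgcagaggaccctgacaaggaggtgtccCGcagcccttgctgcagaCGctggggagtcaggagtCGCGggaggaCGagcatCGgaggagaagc
Ascl2: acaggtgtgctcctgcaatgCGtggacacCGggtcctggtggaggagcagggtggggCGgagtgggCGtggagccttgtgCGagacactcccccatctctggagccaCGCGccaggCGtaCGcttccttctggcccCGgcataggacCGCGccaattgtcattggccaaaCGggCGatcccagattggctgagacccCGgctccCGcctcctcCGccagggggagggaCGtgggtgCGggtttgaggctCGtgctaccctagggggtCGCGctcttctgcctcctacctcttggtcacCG
Phlda2: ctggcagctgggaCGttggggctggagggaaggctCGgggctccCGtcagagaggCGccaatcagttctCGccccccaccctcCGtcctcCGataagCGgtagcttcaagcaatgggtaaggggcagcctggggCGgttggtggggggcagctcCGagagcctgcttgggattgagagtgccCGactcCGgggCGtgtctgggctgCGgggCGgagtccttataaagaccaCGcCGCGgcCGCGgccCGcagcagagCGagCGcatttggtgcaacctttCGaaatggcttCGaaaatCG
Zrsr1: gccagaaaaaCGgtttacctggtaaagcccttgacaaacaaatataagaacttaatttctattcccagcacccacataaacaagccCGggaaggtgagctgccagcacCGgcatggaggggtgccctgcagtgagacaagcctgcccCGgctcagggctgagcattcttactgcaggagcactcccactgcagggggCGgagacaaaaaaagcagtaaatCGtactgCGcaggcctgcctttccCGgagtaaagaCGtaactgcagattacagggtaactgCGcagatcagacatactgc

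With Impact left out by choice, 48 windows in the table of promoters belonged to 30 of the 35 genes. These windows had a median of 11.5 CpG (quartiles 5 and 17). All 32851 windows of the table had a median of 7 CpG (quartiles 3 and 20). The windows of Peg3 and Usp29 share 263 bases, since both genes start from the same stretch of DNA in opposite directions. Peg3 had 1018 UMIs and Usp29 had 36 in the cells compared, with 761 and 26 of them in stromal-like cells. Levels are not compared between genes here, so these counts do not measure the output of the shared start in each direction. The hexamer TGCCGC, known as the site of the imprint-protecting protein ZFP57, was searched on both strands. It occurred in 11 of the 48 windows (22.9%) and in 11.6% of all windows, and in none of the 5 windows printed above. No methylation was measured in these cells, so the sequences are given as context only.

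Within the germ cells, some imprinted genes differed between the classes and others did not. Between SSC- and differentiating-like cells, 5 of the 20 genes with at least 20 UMIs were at least 2-fold higher in SSC-like cells (9.11% of all genes) and 2 were at least 2-fold lower (8.34% of all genes). Between SSC- and progenitor-like cells, 3 of 19 were higher and 1 was lower in SSC-like cells (5.98% and 3.07% of all genes). Between progenitor- and differentiating-like cells, 2 of 19 were higher and 3 were lower in progenitor-like cells (8.44% and 12.3% of all genes). Depth differed between these classes, with medians of 22554, 19446 and 10779 UMIs per cell in the same order as above.

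Mest showed the sharpest step. It stood at 38.9, 6.24 and 8.37 CPM in SSC-, progenitor- and differentiating-like cells, and its log2 ratio of SSC- over differentiating-like cells was 2.22 (1.40 to 3.14). Igf2 (1.41, 0.26 to 2.74), Cdkn1c (1.30, 0.87 to 1.76), Snrpn (1.10, 0.49 to 1.76) and Inpp5f (1.02, 0.61 to 1.44) were the other 4 genes at least 2-fold higher in SSC-like cells. For Cdkn1c the step lay later than for Mest: it stood at 82.7 and 93.0 CPM in SSC- and progenitor-like cells and at 33.5 CPM in differentiating-like cells. At a clustering resolution of 1.2 the Cdkn1c ratio was 0.34 (-0.24 to 0.90), so this difference was not seen with finer clusters. H19 (0.99, 0.39 to 1.63) and Gnas (0.76, 0.29 to 1.26) were also higher in SSC-like cells, within 2-fold. For Zrsr1 the ratio was 0.82, with an interval above 0, and it was -0.27 (-1.53 to 0.98) with cells thinned to 5000 UMIs.

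Of the neighbours Dlk1 and Meg3, Dlk1 was lower in SSC- than in differentiating-like cells, with a log2 ratio of -0.79 (-1.07 to -0.51), whereas Meg3 was higher (0.80, 0.36 to 1.26). With cells thinned to 5000 UMIs, the Dlk1 ratio was -0.34 (-0.96 to 0.28). Stromal markers found in germ cells also moved in both directions between these classes. Dcn stood at 12.3 and 20.3 CPM in SSC- and differentiating-like cells, Col1a1 at 24.6 and 12.6 CPM, and the list of 6 at 54.9 and 44.9 CPM. The part of RNA released by stromal-like cells in the Dlk1 and Meg3 differences was not tested. Kcnq1ot1 stood at 59.4, 47.2 and 97.5 CPM from SSC- to differentiating-like cells. In the smaller of the 2 differentiating-like clusters (32 cells) Kcnq1ot1 stood at 158 CPM and Cdkn1c at 12.3 CPM. Ascl2, also maternally expressed and in the same cluster of genes, did not go with Cdkn1c. It was higher in differentiating-like cells (log2 ratio -0.79, -1.24 to -0.35), with 70.3 CPM in the larger differentiating-like cluster. In the smaller it stood at 17.2 CPM, from only 7 UMIs (6.93 to 35.5). Phlda2 had its highest level in progenitor-like cells (31.2 CPM), 4.01-fold that of SSC-like cells (2.30 to 7.26).

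The smaller differentiating-like cluster also held the highest germ cell levels of Peg3 (44.3 CPM, against 9.48 to 14.6 CPM in the other germ cell clusters) and of Zdbf2 (46.8 CPM, against 9.02 to 17.4 CPM). These levels rest on 18 UMIs of Peg3 (26.3 to 70.0 CPM) and 19 of Zdbf2 (28.2 to 73.0 CPM). Zdbf2, a paternally expressed zinc finger gene, was lower in SSC- than in differentiating-like cells (log2 ratio -0.90, -1.62 to -0.20). For Ndn, Nnat, Slc38a4, Igf2r and Peg3 the interval of the ratio of SSC- over differentiating-like cells included 0, so no difference was detectable at this depth. Summed, the maternally expressed genes were higher in SSC- than in differentiating-like cells (log2 ratio 0.39, 0.19 to 0.60). For the paternally expressed genes the ratio was -0.13 (-0.28 to 0.02), and without Dlk1 it was 0.14 (-0.04 to 0.32).

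**Figure D5:**
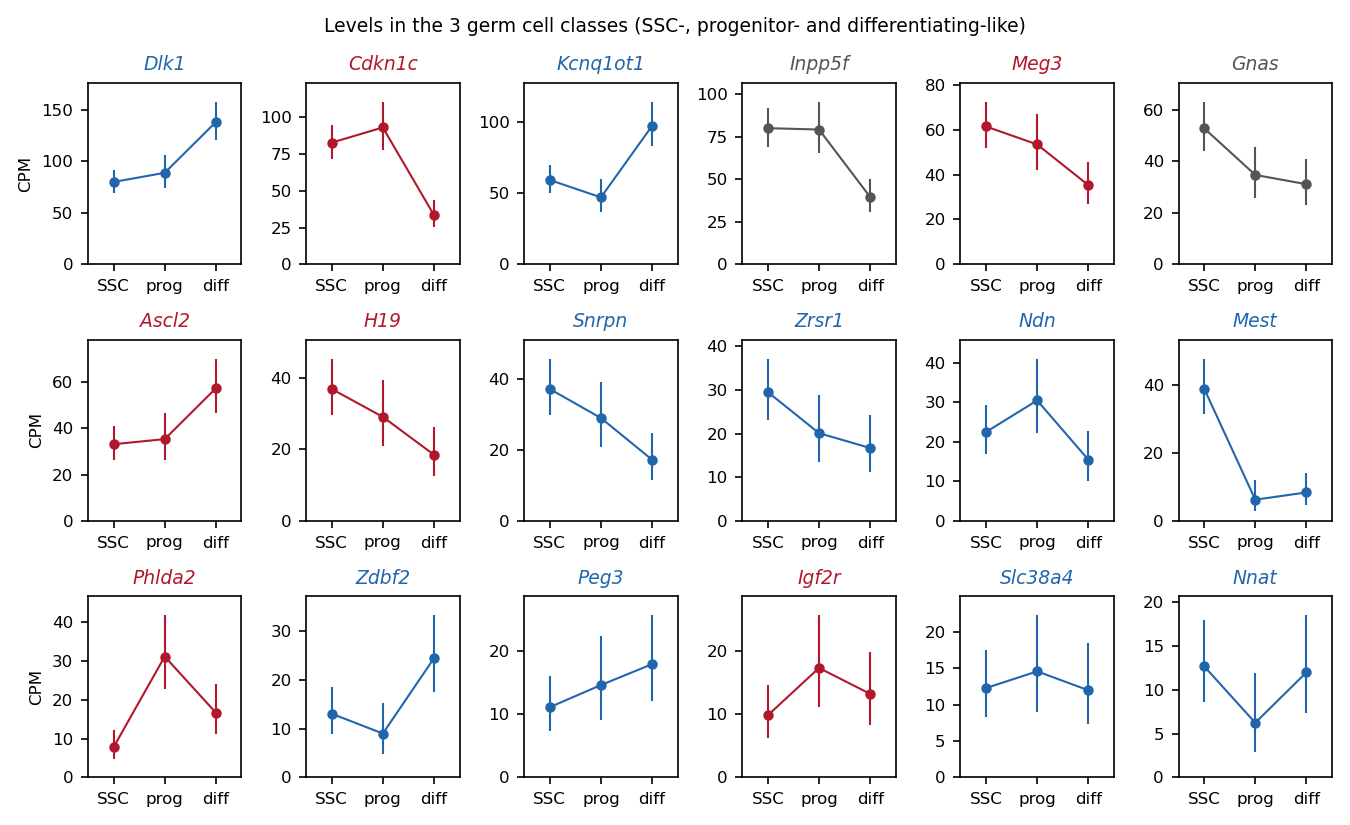
CPM of the 18 imprinted genes with at least 50 germ cell UMIs in SSC-, progenitor- and differentiating-like cells (SSC, prog and diff), with exact 95% Poisson intervals; each panel has its own axis from 0, and lines only join the points of a gene. Mest is highest in the SSC-like class and Cdkn1c lowest in the differentiating-like class, while Dlk1, Kcnq1ot1 and Ascl2 are highest in the differentiating-like class.

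RNA released by other cells gives UMIs in every barcode, so low germ cell levels were set beside those of genes that mark stromal-like or myoid-like cells. The 6 stromal markers stood in germ cells at 0.119 to 2.02% of their stromal-like level (median 0.460%) and in Sertoli-like cells at 0.380 to 0.902%. Meg3 stood in germ cells at 0.789% of its stromal-like level and in Sertoli-like cells at 0.187%, and Dlk1 at 1.95% and 0.545%. In germ cells both lay within the range of the markers, and the part of released RNA in their UMIs was not tested. Germ cells held 4.22-fold (2.86 to 6.47) the Meg3 level and 3.58-fold (2.76 to 4.71) the Dlk1 level of Sertoli-like cells. Such an excess was not particular to them. Of the stromal markers, Pdgfra (6.66 and 1.31 CPM) and Col1a1 (22.1 and 9.58 CPM) were also higher in germ than in Sertoli-like cells. Dcn (14.6 and 13.5 CPM) and Col3a1 (8.64 and 8.71 CPM) were nearly level, and Tcf21 (0.180 and 0.871 CPM) and Lum (0.180 and 0.436 CPM) were lower. After thinning to 5000 UMIs, Dlk1 was found in 94 of 279 germ cells and 27 of 235 Sertoli-like cells, and Meg3 in 52 and 10. H19 stood in germ cells at 2.32% of its myoid-like level, above the 5 myoid markers (0.154 to 0.717%), and Mest and Cdkn1c stood at 13.2% and 22.2% of their stromal-like levels. Plagl1, at 1.13%, lay within the range of the stromal markers.

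The 12 genes with under 100 UMIs in the kept cells were Mirg, Usp29, Magel2, Impact, Zim1, Phlda2, Slc38a4, Nap1l5, Ddc, Asb4, Peg12 and Mkrn3. Of these, Magel2, Nap1l5, Asb4 and Peg12 had 6 to 16 UMIs in the cells compared and gave no usable ratio. Mkrn3 had 8 UMIs in germ and 13 in somatic cells. Impact, which encodes a regulator of translation, stood at 2.70 CPM in germ cells, at 9.61 to 13.2 CPM in the somatic classes compared and at 34.9 CPM in macrophage-like cells. Airn, the paternally expressed RNA that overlaps Igf2r on the opposite strand, had 107 UMIs and stood at 35.1 CPM in stromal-like and 1.26 CPM in germ cells.

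Transcripts of genes whose proteins place, keep or remove imprints were counted in the same cells. Of 14 such genes, 11 had at least 20 UMIs, and 4 of these were at least 2-fold higher in germ cells and 3 at least 2-fold higher in somatic cells, against the shares of all genes given above. Uhrf1, which brings DNA methyltransferase to newly copied DNA, stood at 118 CPM in germ and 15.7 CPM in somatic cells. The maintenance methyltransferase gene Dnmt1 stood at 123 and 30.0 CPM, Dnmt3b at 57.8 and 10.5 CPM, and the histone methyltransferase gene Setdb1 at 59.4 and 21.8 CPM. Trim28, the co-repressor recruited by ZFP57, stood at 141 and 82.1 CPM, within 2-fold. Lower in germ cells were Tet1 (0.900 and 15.3 CPM) and Tet2 (0.720 and 11.3 CPM), which act in removing DNA methylation, and Zfp57 (1.80 and 9.45 CPM). Among germ cells, Uhrf1 stood at 167, 43.0 and 112 CPM and Dnmt3b at 33.2, 45.1 and 105 CPM from SSC- to differentiating-like cells. Of 8 genes that host, overlap or resemble imprinted genes, Snrpb, the relative of Snrpn, had the most germ cell UMIs (852 CPM in germ and 476 CPM in somatic cells).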

How the data were processed

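Per the study's methods, reads of 1 Chromium library were aligned to mm10 with Cell Ranger 2.1.0, and the authors deposited raw UMI counts per gene and barcode, without normalization. The build mm10 corresponds to GRCm38, positions come from GENCODE vM21, and promoter windows come from RefSeq.

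The members, marker lists and gene lists were chosen with earlier results of these data known. Barcodes with under 500 genes (10), with 10% or more mitochondrial UMIs (36) or called doublets by scrublet (4; scanpy 1.11.5, expected rate 0.01) were removed, and doublets may remain. With Seurat 5.3.0 in R 4.3.3, counts were log-normalized to 10000 UMIs and clustered (mean.var.plot, 14 principal components, resolution 0.5). Imprinted genes were left out of the variable genes (12 of 898), also when germ cells were clustered again (3 of 899). A cluster took the class with the highest mean difference in log-normalized marker expression, and stayed unnamed with under 3 of its markers in 10% of cells or with more markers of another class among its top 10 genes, or at low depth with none of its own there. The top 10 were ranked by differences of log-normalized means, chosen after a ranking by fold had left the largest germ cell cluster unnamed through 1 hemoglobin-rich barcode. Names are therefore rebuilt and may differ from the study's.

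CPM, log2 ratios and shares were computed from summed counts, with exact Poisson, conditional binomial and binomial intervals. A class at 0 was set at a floor of 3 UMIs. Genes with at least 100 UMIs in kept cells were described in every class, those with at least 50 germ cell UMIs between germ cell classes, and the others by counts. Of the other lists, the genes past 2-fold or with the most germ cell UMIs were named. In simulated counts for germ and somatic cells over 27998 genes, 99.5% of 200 genes changed by 4-fold passed 2-fold, and 96.0% of the intervals held the true ratio. These counts were drawn from the Poisson model that the intervals assume, without spread between cells. The changed genes had at least 20 expected UMIs. The simulation therefore checked the calculation only and cannot show whether the intervals are wide enough for the real counts. With 1 library there is no replicate, and no p-value was calculated. Alternatives covered filters, clustering, denominators, thinning and thresholds.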

Additional observations from a re-analysis of the deposited data

How the results depend on the processing

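No paired analysis was possible because there was 1 library. The results were recomputed under 23 alternatives and 1 more that was chosen after the values were seen, which left out the germ cell cluster of low depth (62 cells). Of the 23, 1 left out the barcode with the most UMIs of the hemoglobin gene Hba-a1. The filters had already removed that barcode, so this alternative could change nothing, and the hemoglobin-rich barcode of the progenitor-like class stayed in. No sum changed sign where its interval had excluded 0. The log2 ratio of germ over somatic cells moved outside its counting interval with a mitochondrial limit of 5% (maternal -4.65, paternal -4.06), as the mean over cells (-3.89 and -3.20), thinned to 5000 UMIs (-3.91 and -3.17) and without the largest member (-1.55 and -2.10). The ratio of SSC- over differentiating-like cells moved to 0.18 for the maternal sum when thinned. For the paternal sum, whose interval included 0, it moved to 0.04 as the mean over cells and to 0.14 without Dlk1. Genes at least 2-fold higher in germ cells numbered 2 with a mitochondrial limit of 5%, which kept fewer germ and fewer Sertoli-like cells. They numbered 5 to 7 under the other filters, clusterings, totals and UMI minimums, and 4 at 4-fold. The count on the somatic side ranged from 17 to 23 over all alternatives, including those that changed the fold limit. Among single genes, 1 called ratio changed sign: Zrsr1 between SSC- and differentiating-like cells went from 0.82 to -0.27 when thinned; the cause was not tested. With a mitochondrial limit of 5% or a resolution of 0.3 there was no SSC-like class, and no ratio of SSC- over differentiating-like cells could be given. Intervals cover counting error only, and the spread between mice is unknown.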

Other observations

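Kcnq1ot1 had no UMI in the germ cell cluster of low depth (62 cells, 311747 UMIs, median 3905 per cell), where 3 UMIs would be 9.62 CPM, against 376 UMIs and 71.7 CPM in the other 262 germ cells. Other imprinted genes were present there: Cdkn1c at 80.2 CPM (51.9 to 118; 70.0 CPM in the other germ cells), Dlk1 at 93.0 CPM (62.3 to 134; 100 CPM) and Ascl2 at 51.3 CPM (29.3 to 83.3; 40.4 CPM). Some others were lower there than in the other germ cells. Inpp5f stood at 19.2 CPM (7.06 to 41.9) against 70.4 CPM, and Meg3 at 22.5 CPM (9.03 to 46.3) against 53.2 CPM. Gnas stood at 16.0 CPM (5.21 to 37.4) against 43.1 CPM. Of these 62 cells, 51 were in the differentiating-like class. The cluster was singled out after its values were seen, and no test was made.

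In macrophage-like cells the imprinted genes summed to 397 CPM (345 to 455), of which Gnas gave 63.9% and Impact 8.78%. Maternally expressed genes stood at 32.9 CPM (19.2 to 52.7) there, below their level in germ cells (224 CPM). Stromal marker genes summed to 34.9 CPM in the same cells.

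Of the genes that overlap imprinted genes on the other strand, Kcnq1 had 1 UMI in the whole library beside 1164 of Kcnq1ot1. Nespas had 126 UMIs beside 2704 of Gnas, and Blcap had 278 beside 370 of Nnat.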
